A study of Mus musculus with 2 samples.

Results

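Chaperones fold new proteins, hold damaged ones and pass them on for repair or removal, and co-chaperones direct that work. The genes described here encode the Hsp70, Hsp90, small heat shock, chaperonin, J-domain and BAG proteins of the heart. They were chosen by gene symbol: names that begin with Hspa, Hspb, Hspd, Hspe, Hsph, Hsp90, Dnaja, Dnajb or Dnajc, names of Bag or Cct with a digit, and Cryab, each with a protein-coding transcript and without pseudogenes. The rule found 89 genes among 55536 annotated genes, of which 22015 were nuclear protein-coding. Because it reads names, it also took Hspbp1 and Hspbap1, which bind heat shock proteins, and Hspb11, which is an intraflagellar transport protein. Cct6a fell outside it, since its annotated transcripts were all non-coding.

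The RNA came from heart tissue of male B6CASTF1/J mice, the first-generation hybrid of C57BL/6J and CAST/EiJ, aged 18 to 20 months. Each of the 2 libraries was made from 300 ng of total RNA with added ERCC spike-ins, after reduction of ribosomal RNA, in a preparation that keeps the strand. The labels call them biological replicates 1 and 2 of the same group, with different sample identifiers and the same donor identifier. The labels give no second group. The only difference that can be measured is therefore that of replicate 2 against replicate 1, and it may be technical in part. Whether the libraries come from separate animals is not settled by the labels, so each SD (n = 2) is a spread between libraries.

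In the cytosol, Hsp70 binds short stretches of unfolded chain, J-domain proteins bring it clients and switch on its ATPase, and exchange factors of the Hsp110 and BAG families make it let go. Hsp90 takes over partly folded kinases and receptors, and small heat shock proteins hold unfolding proteins without using ATP. Some genes of each family run at a steady level, and others are raised by the heat shock factor HSF1 when unfolded protein builds up. In heart muscle the small heat shock proteins are known for guarding the Z-disc, desmin and filamin.

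The largest differences among these genes lay in the stress-inducible cytosolic chaperones, which were lower in replicate 2. The nearly identical Hsp70 genes Hspa1a and Hspa1b summed to 44.18 TPM (a level per length, in parts of a fixed total) in replicate 1 and 5.32 TPM in replicate 2, a 7.53-fold difference in scaled counts. Hsph1, Dnaja1, Hsp90aa1 and Hspb1 were 1.61-fold to 1.99-fold lower. Outside a list of 10 inducible genes, to which all these belong, the 67 members tested lay between -0.33 and 0.38 on the log2 scale, and none of them reached 1.5-fold. That list was drawn up from textbook roles with earlier results of these data known. All members together held nearly the same share of nuclear protein-coding TPM in both libraries, 1.76% in replicate 1 and 1.77% in replicate 2.

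The gene tables summed to 38858481 expected counts over annotated genes in replicate 1 and 37281459 in replicate 2, of which the 89 members took 395001 and 338563. Log2 ratios below are of counts in replicate 2 over replicate 1, scaled by TMM library sizes. Nuclear protein-coding genes summed to 414428 TPM in replicate 1 and 358127 TPM in replicate 2, so TPM tends to be lower in replicate 2 where the scaled log2 ratio is near 0, though not for every gene. The cardiomyocyte markers Myh6, Tnnt2, Actc1, Tnni3, Ryr2 and Pln were all well expressed, in sum 25614 and 21168 TPM, as the label heart calls for. Over the 12189 genes whose mean reached 1 TPM, the median log2 ratio was -0.02.

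Of the 89 members, 77 reached 1 TPM in both libraries and the same 77 were tested. Only Hspa1a and Hspa1b were at least 2-fold lower in replicate 2, against 138 of the 12189 genes (1.13%), and 0 were at least 2-fold higher, against 0.533% of all genes. At 1.5-fold, 6 members were lower, against 2.88% of all genes, and 0 were higher, against 2.17%. An exact binomial test, which covers counting error only and compares the libraries rather than any condition, called 26 members lower (15.9% of all genes) and 7 higher (10.7%), and left 44 uncalled. The median log2 ratio of the 77 was -0.04, with 51 below 0 and 26 above. That split depended on the scaling: it was 61 and 16 with total counts and 33 and 44 with the spike-ins, where the median was 0.05.

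**Figure D1:**
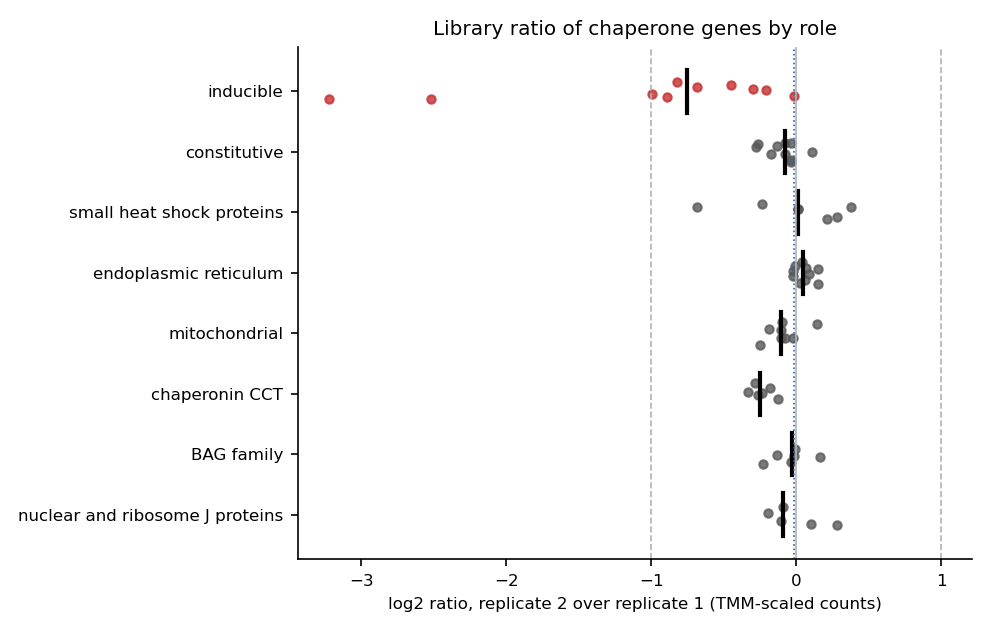
Each point is a chaperone gene whose mean reached 1 TPM, placed by its log2 ratio of scaled counts, replicate 2 over replicate 1, in rows by role; black bars are row medians, dashed lines mark 2-fold, and the dotted line is the median of all genes tested. The inducible row has its median at -0.75 and reaches -3.23, while in the other rows Hspb1, which also stands in the inducible row, is the only gene past 1.5-fold, and all 6 CCT genes lie below 0.

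Hspa1b, the inducible Hsp70, stood at 27.47 TPM in replicate 1 and 2.66 TPM in replicate 2, from 2292 and 221 counts. Its log2 ratio was -3.23 (95% interval -3.44 to -3.04), the 18th lowest of all 12189 genes. Hspa1a stood at 16.71 and 2.66 TPM, from 1479 and 233 counts, with a log2 ratio of -2.52 (-2.73 to -2.33). The genes lie on the minus strand of chromosome 17 in mm10, Hspa1b at 34956436 to 34959238 and Hspa1a at 34969190 to 34972156, with 9951 bases between them. Of the 100-base stretches of Hspa1b 49.9% also occur in Hspa1a, and of those of Hspa1a 47.1% occur in Hspa1b, so the split of reads between them is uncertain. Their sum does not depend on that split, and its log2 ratio was -2.91 (-3.06 to -2.78). The third gene of that locus, Hspa1l, an Hsp70 best known from testis, had 4.37 and 3.89 TPM. Its log2 ratio was -0.04, and it did not pass the test. It starts 547 bases from Hspa1a on the opposite strand.

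The promoters of the pair show how alike these genes are, and where the letters of the heat shock element stand. HSF1 binds repeated units of GAA and its complement TTC. The search took GAANNTTC and TTCNNGAA, which read the same on both strands and overlap each other in tandem arrays, in RefSeq promoters of build GRCm38.p6, from 250 bases before to 50 after each start. The windows of Hspa1a and Hspa1b were 98.67% identical over 300 bases. They differed at 4 positions, C44T, T47C, T249G and C276T, counted from 1 at the 5′ end of the window with the base of Hspa1a first. The last 120 bases before each start are shown, with the matched letters in capitals, 104 bases before the start in both.
Hspa1a: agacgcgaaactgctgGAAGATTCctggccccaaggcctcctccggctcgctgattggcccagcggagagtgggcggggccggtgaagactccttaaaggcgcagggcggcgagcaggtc
Hspa1b: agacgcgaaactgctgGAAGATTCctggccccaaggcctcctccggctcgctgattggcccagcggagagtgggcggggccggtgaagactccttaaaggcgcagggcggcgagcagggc

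Promoters were found for 72 of the 89 members, as 92 of the 32851 promoters in the table. The letters occurred in 15.1% of all promoters, in 17% of all genes by any of their promoters, and in 20 of the 72 member genes (27.8%). Among the inducible genes with an entry 7 of 9 held them, and among their constitutive counterparts 1 of 7, which was Dnajb6. Hsp90aa1 of the inducible list and Hspa8, Hsp90ab1 and Dnajc5 of the constitutive list had no promoter entry, so they were not searched. The inducible genes were listed as known HSF1 targets, so this share is a description and not independent evidence. Hspb1, which was lower in replicate 2, holds the letters at 2 places. Hspb6, which had the highest log2 ratio of the tested members, holds them once in its downstream promoter and not in its upstream one. The stretch from 135 to 56 bases before the start is shown for both, for Hspb6 from the downstream promoter.
Hspb1: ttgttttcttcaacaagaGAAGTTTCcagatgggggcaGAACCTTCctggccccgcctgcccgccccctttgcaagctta
Hspb6: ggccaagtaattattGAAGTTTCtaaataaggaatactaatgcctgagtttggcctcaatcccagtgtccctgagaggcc

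Tandem copies were rarer, in 0.603% of all promoters and in 4 of the 72 member genes, Hsph1, Hspd1, Hspe1 and Dnajb6. Short stretches around the letters are shown for Hsph1 and Dnaja1, which were lower in replicate 2, and for Dnajb6, Hspe1 and Hspd1, which stayed within 1.5-fold. Hspe1 and Hspd1 are read from the same 26 bases on opposite strands. The stretch of Hsph1 is not its tandem copy, which lies after the start. Each stretch of this group touches an annotated exon.
Hsph1: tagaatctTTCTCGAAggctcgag
Dnaja1: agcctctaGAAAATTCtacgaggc
Dnajb6: ctccgaGAATCTTCCGGAAcgctag
Hspe1: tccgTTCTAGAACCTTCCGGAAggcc
Hspd1: ggccTTCCGGAAGGTTCTAGAAcgga

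Members that hold the letters differed widely in their ratios. The 7 inducible genes with the letters had log2 ratios from -3.23 to -0.02, with a median of -0.89 and Bag3 at the upper end. The 11 other members with the letters that were tested ranged from -0.25 to 0.38 with a median of -0.02, with 6 below 0 and 5 above. A match does not show that a factor binds, and windows without one say only that these letters are not there.

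The inducible list held 10 genes, assigned from textbook roles as HSF1-driven cytosolic chaperones, with earlier results of these data known. Its contrast with other members is therefore a description and not independent evidence. All 10 had a log2 ratio below 0, with a median of -0.75 beside -0.02 for all genes tested. The exact binomial test called 9 of them lower, against 15.9% of all genes. Summed, they had 831.54 TPM in replicate 1 and 483.69 TPM in replicate 2. With spike-in scaling 9 of the 10 were below 0. The constitutive list, 10 cytosolic relatives that are not known mainly as stress genes, summed to 1895.44 and 1572.08 TPM. Its median was -0.08, with 9 below 0, 5 called lower (15.9% of all genes) and 0 past 1.5-fold. With spike-in scaling 4 were below 0 and 6 above, and the median was 0.01. The inducible list came to 43.9% of the constitutive list in replicate 1 and 30.8% in replicate 2, a ratio that needs no scaling between the libraries. The medians differed by -0.67, and by -0.48 with Hspa1a and Hspa1b left out of the list.

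Below the Hspa1 pair came 4 genes between 1.5-fold and 2-fold. Hsph1, an Hsp110 exchange factor for Hsp70, had 48.92 TPM in replicate 1 and 25.24 TPM in replicate 2, a log2 ratio of -0.99 (95% interval -1.07 to -0.92). It passed 2-fold with total counts (-1.07) and with DESeq2 size factors (-1.01). Dnaja1, a J-domain partner of Hsp70 in folding and import, had 70.78 and 34.68 TPM, a log2 ratio of -0.89 (-0.97 to -0.81). Hsp90aa1, the inducible Hsp90, had 164.54 and 72.77 TPM, a log2 ratio of -0.82 (-0.88 to -0.77). These ranked 140th, 181st and 201st from the lowest among all genes tested. Hspb1, the small heat shock protein of actin filaments, had 281.39 and 160.31 TPM, a log2 ratio of -0.68 (-0.74 to -0.63), and ranked 282nd.

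The remaining inducible genes differed less. Dnajb1, the J-domain protein that works with inducible Hsp70, had 8.04 and 5.39 TPM. Its log2 ratio was -0.45 (adjusted p = 1.37e-06, exact binomial test). Hspa4l, another Hsp110, had 25.49 and 16.45 TPM and -0.30, and Dnajb4, a J-domain protein of muscle, had 55.24 and 43.13 TPM and -0.21. These 3 passed the counting test without reaching 1.5-fold. Bag3, which joins Hsp70 to small heat shock proteins in the autophagy of damaged muscle filaments, had 132.96 and 120.4 TPM. Its log2 ratio of -0.02 (-0.06 to 0.03) did not pass the test, and with spike-in scaling it was above 0. Bag3 and Dnajb4 lay within the range of the constitutive list, -0.28 to 0.11, and Hspa4l lay just below it.

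**Figure D2:**
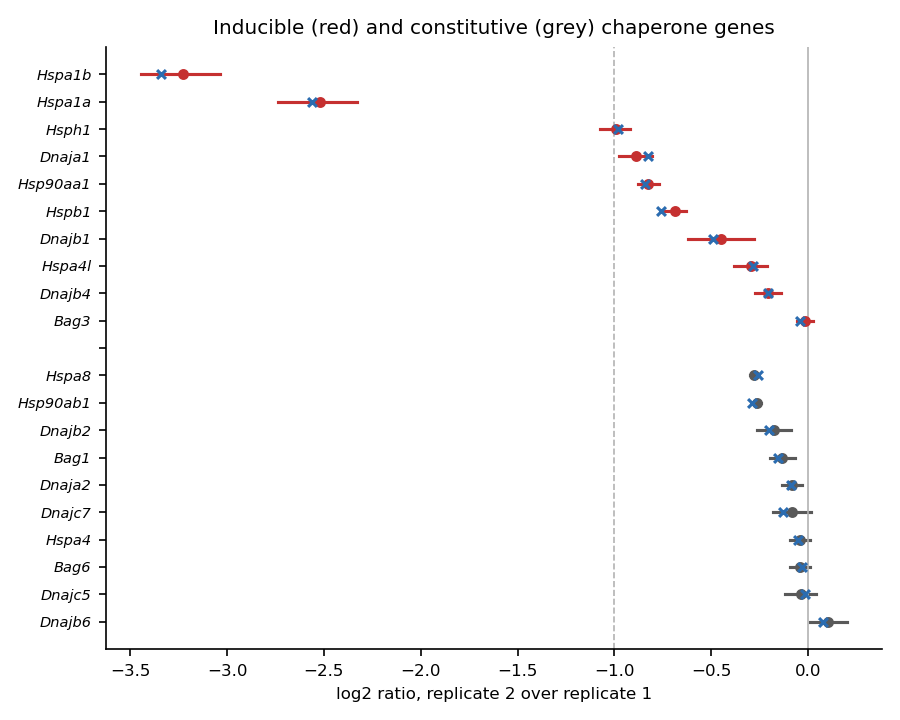
Log2 ratio of scaled counts, replicate 2 over replicate 1, for the 10 inducible genes (red) and their 10 constitutive counterparts (grey); points are the gene table, bars are 95% exact intervals for counting error, crosses are the second transcript table, and the dashed line marks 2-fold lower. Only Hspa1b and Hspa1a lie beyond the dashed line, and Dnajb4 and Bag3 lie within the range of the constitutive genes.

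Constitutive relatives held most of the cytosolic Hsp70 and Hsp90 level. Hspa8, the steady Hsp70 of every cell, had 728.67 TPM in replicate 1 and 623.36 TPM in replicate 2, a log2 ratio of -0.28 (-0.30 to -0.26). It made up 93.5% of the cytosolic Hsp70 level (Hspa8, Hspa1a, Hspa1b, Hspa1l and Hspa2) in replicate 1 and 98.2% in replicate 2. The Hspa1 pair came to 6.06% of Hspa8 in replicate 1 and 0.853% in replicate 2. Hsp90ab1, the steady Hsp90, had 636.93 and 478.17 TPM, a log2 ratio of -0.26 (-0.29 to -0.24). The interval of Hsp90aa1 did not overlap it, and Hsp90aa1 made up 20.5% of cytosolic Hsp90 in replicate 1 and 13.2% in replicate 2.

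Dnaja1 and Hsph1 likewise took a smaller share beside their steady relatives in replicate 2. Dnaja1 was 38.3% of the sum of Dnaja1 and Dnaja2 in replicate 1 and 25.2% in replicate 2, since Dnaja2, its steady relative, had 114.24 and 103.12 TPM and a log2 ratio of only -0.08. Hsph1 was 38.4% and 28.2% of the 3 Hsp110 genes, and Hspa4, the steady Hsp110, had 52.89 and 47.67 TPM with a log2 ratio of -0.04. Of the rest, Bag1, an exchange factor, had 110.1 and 91.75 TPM (-0.13), Dnajb2, which takes clients to the proteasome, 49.37 and 38.78 TPM (-0.17), and both were called lower by the counting test. Bag6, which handles stray membrane proteins, had 97.66 and 88.16 TPM (-0.04). Dnajc7, a co-chaperone of both Hsp70 and Hsp90, had 50.64 and 48.01 TPM (-0.08). Dnajb6, which keeps filaments and polyglutamine proteins soluble, had 29.15 and 28.83 TPM (0.11), and Dnajc5, the cysteine string protein of vesicles, 25.79 and 24.23 TPM (-0.04). None of these 4 passed the test.

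Marker genes of cardiomyocytes and of other cell types differed between the libraries. Of the 6 cardiomyocyte markers 5 were called lower in replicate 2 (15.9% of all genes) and 1, Pln, higher (10.7% of all genes). Their median log2 ratio was -0.15. Of 8 white adipocyte markers 7 were tested and 6 were at least 2-fold lower in replicate 2 (1.13% of all genes), with a median log2 ratio of -2.02. The list summed to 273.08 and 219.11 TPM, most of it Fabp4, which endothelium also expresses, and no marker of it was at 0 in both libraries. All 5 atrial markers were called lower (15.9% of all genes), with a median of -0.44 and summed levels of 1371.21 and 813.94 TPM. Of 12 immediate early genes, which rise within minutes of handling or stress, 10 were tested, with a median of -0.23. Among these 3 were at least 1.5-fold lower (2.88% of all genes) and 1 higher (2.17% of all genes). The 12 summed to 125.44 and 95.43 TPM. All 5 erythroid genes were called lower (15.9% of all genes), with a median of -0.54 and sums of 10875 and 7045 TPM. The 6 macrophage markers had a median of -0.31 (60.13 and 42.41 TPM). Of these 4 were called lower (15.9% of all genes), and 2 above 0, Cd68 (0.24) and Mrc1 (0.05), were not called. The medians of fibroblast (0.07), endothelial (0.06) and mural markers (0.05) lay near 0, though single members went both ways: Col1a1 (-0.56) and Col1a2 (-0.47) were called lower, and Kdr (0.45) was called higher. Of 6 skeletal muscle markers, in sum 170.87 and 238.99 TPM, Myh2 and Myh4 were at 0 in both libraries. The only tested marker of that list, Acta1, which heart muscle also expresses, was higher in replicate 2, at 170.48 and 238.7 TPM (0.62). The part of these shifts in the lower inducible chaperones was not tested. In bulk tissue, fewer cells of a type and less RNA per cell cannot be told apart.

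Small heat shock proteins carried the highest chaperone levels. Together they held 0.711% ± 0.0533 (SD, n = 2) of nuclear protein-coding TPM and 38.2% of the level of all members in replicate 1 and 42.2% in replicate 2. Of the 8, 7 were detected, and Hspb9, a testis gene, had 0 counts and 2 counts. Cryab, the αB-crystallin that protects desmin and the Z-disc, was the most abundant chaperone gene, at 1360.18 TPM in replicate 1 and 1288.01 TPM in replicate 2. Its log2 ratio was 0.01 (-0.01 to 0.04). Cryab made up 48.8% and 48.1% of the small heat shock proteins, a nearly fixed share, while Hspb1 made up 10.1% and 5.98%. In the second table Cryab made up 54.8% in replicate 1 and 56.2% in replicate 2, and Hspb1 10.8% and 6.06%.

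Hspb6, Hspb7 and Hspb8 went the other way from Hspb1. Hspb7, a partner of filamin C in heart muscle, had 540.98 TPM in replicate 1 and 599.98 TPM in replicate 2, a log2 ratio of 0.28 (0.26 to 0.30). Hspb6, a phosphorylated regulator of muscle relaxation, had 350.56 and 378.18 TPM, a log2 ratio of 0.38 (0.34 to 0.41). Hspb8, which works with Bag3, had 189.97 and 201.15 TPM, a log2 ratio of 0.21 (0.17 to 0.25). The test called all 3 higher, and they stayed above 0 under every scaling and in the second table. Hspb2, a binding partner of myotonic dystrophy kinase, had 57.67 and 44.86 TPM (-0.24, called lower), and its partner Hspb3 had 7.94 and 7.32 TPM (0.01, not called). The family thus had 2 members called lower (15.9% of all genes), 3 higher (10.7% of all genes) and 2 neither, with a median of 0.01. That median was -0.07 with total counts, -0.0014 with DESeq2 size factors and -0.01 in the second table.

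Cryab and Hspb2 are neighbours on chromosome 9 of mm10, Cryab on the plus strand at 50751325 to 50756636 and Hspb2 on the minus strand at 50751078 to 50752354, and their annotated spans overlap by 1030 bases. Hspb2 stood at 4.24% of Cryab in replicate 1 and 3.48% in replicate 2. Whether the counting used the strand is not given in the sources used here, so reads in the overlap may be shared between them.

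**Figure D3:**
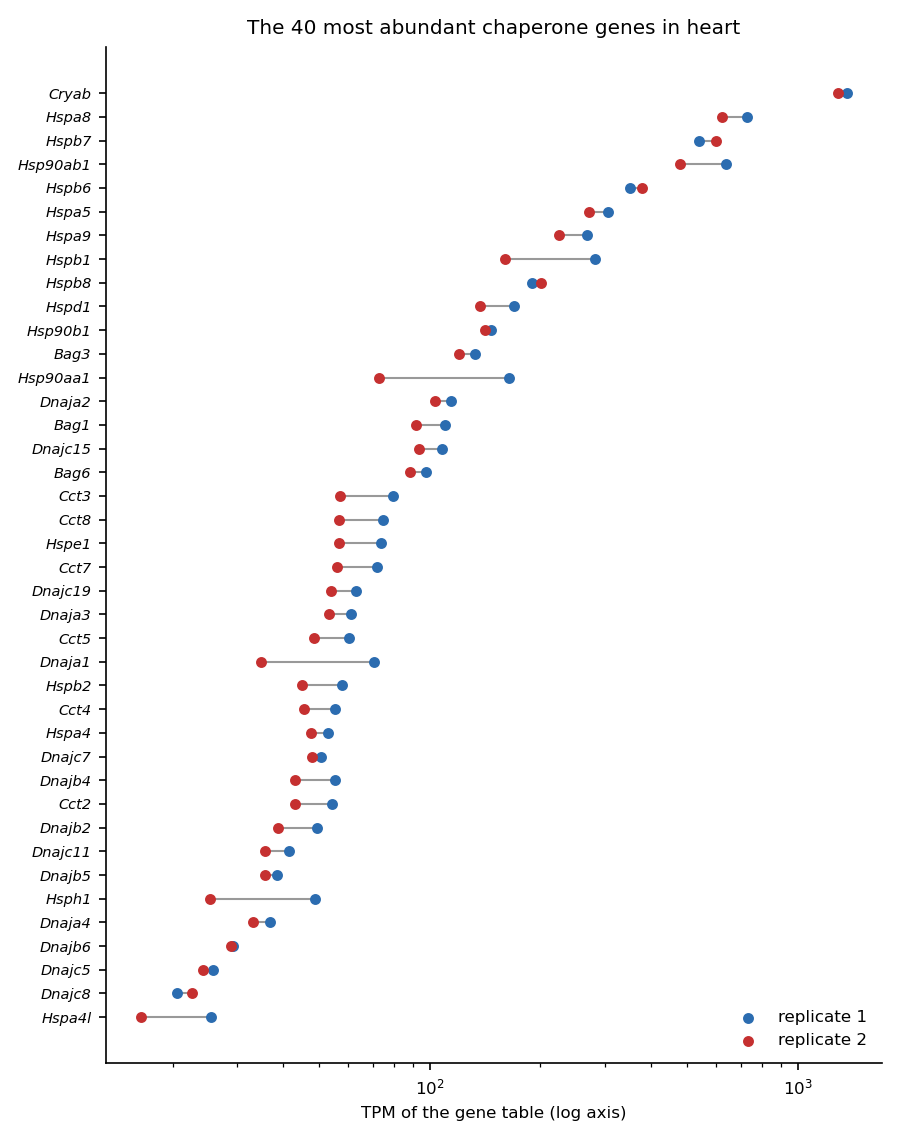
TPM of the 40 chaperone genes of highest mean level on a log axis, with a point for each library and a line joining them, in order of mean level. Cryab leads, followed by Hspa8, Hspb7, Hsp90ab1 and Hspb6, and the longest lines belong to Hsp90aa1, Dnaja1, Hsph1 and Hspb1.

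The order of levels was alike in the libraries. Across the 77 members tested the rank correlation of TPM between them was 0.96, a value across genes of libraries that share annotation and tissue. After Cryab came Hspa8, Hspb7, Hsp90ab1 and Hspb6. Hspa8 (676 ± 74.5 TPM, n = 2), Hspb7 (570 ± 41.7) and Hsp90ab1 (558 ± 112) had overlapping spreads, with n = 2. Hspa8 stood above both others in each library, and Hspb7 stood above Hsp90ab1 in replicate 2 only. Hspa5 (288 ± 24.6), Hspa9 (246 ± 30.4) and Hspb1 (221 ± 85.6) likewise overlapped.

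Chaperones of the endoplasmic reticulum differed little. The 10 genes summed to 547.18 TPM in replicate 1 and 501.13 TPM in replicate 2. Their median log2 ratio was 0.05 (-0.03 with total counts and 0.14, with all 10 above 0, with spike-in scaling). The test called 0 lower (15.9% of all genes) and 2 higher (10.7% of all genes), and 0 were past 1.5-fold. Hspa5, the lumenal Hsp70 known as BiP, had 305.43 and 270.63 TPM, a log2 ratio of -0.03 (-0.05 to 0.0029). Hsp90b1, the lumenal Hsp90, had 146.77 and 140.99 TPM and 0.08 (called higher). Below these, Dnajb11, a J-domain partner of BiP, had 20.15 and 18.33 TPM (-0.01). Dnajb9, which restrains the sensor of unfolded protein in this compartment, had 16.67 and 16.95 TPM (0.15, called higher). Dnajb12, anchored in its membrane, had 15.55 and 15.13 TPM (0.06), and Dnajc10, a disulphide reductase, 13.56 and 12.18 TPM (-0.02). Of the 9 genes with a promoter entry 3, Hspa5, Hsp90b1 and Dnajc3, held the endoplasmic reticulum stress element (ERSE), found in 0.137% of all genes and in no other of the 72 members with an entry.

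Mitochondrial chaperones were slightly lower in replicate 2 as a group. The 8 genes had 799.59 and 670 TPM in sum and a median log2 ratio of -0.10 (-0.01 with spike-in scaling), with 7 below 0. The test called 3 lower (15.9% of all genes) and 0 higher (10.7% of all genes). Hspa9, the matrix Hsp70 of the import motor, had 267.61 and 224.56 TPM (-0.11, called lower). Hspd1, which forms the folding chamber of the matrix, had 169.09 and 137.17 TPM (-0.19), and Hspe1, its lid, 73.7 and 56.67 TPM (-0.25); both were called lower. These genes share a promoter region on chromosome 1, with annotated starts 111 bases apart on opposite strands. Hspe1 stood at 43.6% of Hspd1 in replicate 1 and 41.3% in replicate 2, so the proportion was close in both libraries. Its level depended on the way of counting, at 55.8% and 54.6% in the second table. The annotated spans of the pair overlap by 112 bases, and reads there may be shared if the counting did not use the strand. The J-domain genes of the import motor, Dnajc15 (108.27 and 93.45 TPM) and Dnajc19 (63 and 53.75 TPM), did not pass the test. Neither did Dnaja3, a matrix J-domain protein (61.05 and 53.16 TPM), Dnajc11, of the inner membrane organizing complex (41.39 and 35.6 TPM), or Dnajc30 (15.48 and 15.64 TPM).

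The cytosolic chaperonin CCT, which folds actin and tubulin, was lower in replicate 2 in every detected subunit of the list. All 6 (Cct2, Cct3, Cct4, Cct5, Cct7 and Cct8) were called lower, against 15.9% of all genes. Their log2 ratios ran from -0.33 to -0.13 with a median of -0.25, and all stayed below 0 under each scaling and in the second table. Among these 6 Cct3 was the highest in the gene table, at 79.51 TPM in replicate 1 and 56.92 TPM in replicate 2. Cct8 had 74.5 and 56.8 TPM, and Cct7 had 71.78 and 55.96 TPM. Cct5 (60.26 and 48.53), Cct4 (55.33 and 45.66) and Cct2 (54.42 and 43.15) lay close below, so these 6 stood within a narrow range of levels in the gene table. The other subunits agreed in direction: Tcp1 had 83.05 and 71.97 TPM (-0.20), and Cct6a 47.4 and 27.8 TPM (-0.33). Cct6b, the testis form, had 2 and 5 counts. The order of levels differed in the second table, where Cct3 was the lowest of the 6, at 56.9 and 45.9 TPM. There Cct8 was the highest, at 101.7 and 81.4 TPM.

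**Figure D4:**
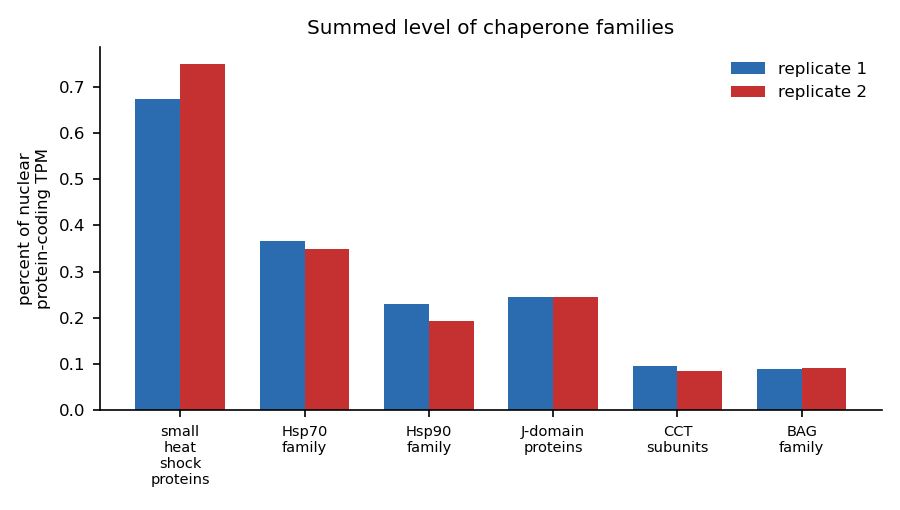
Summed TPM of each chaperone family as a percent of nuclear protein-coding TPM, with a bar for each library. Small heat shock proteins are the tallest in both (0.673% and 0.748%), followed by the Hsp70 family (0.366% and 0.35%), and the Hsp90 family differs by the largest proportion, 0.229% against 0.193%.

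By family, the Hsp70 genes held 0.358% ± 0.0112 of nuclear protein-coding TPM, the J-domain genes 0.245% ± 0.000272 and the Hsp90 genes 0.211% ± 0.0252 (SD, n = 2). All 14 Hsp70 genes were detected. The distant relatives Hspa12b, known from endothelium, and Hspa12a had 12.35 and 12.68 TPM and 7.82 and 6.94 TPM, with log2 ratios of 0.13 and 0.07. The others were Hspa14 of the ribosome (9.61 and 8.54 TPM, -0.13), Hspa13 of the endoplasmic reticulum (5.77 and 4.93 TPM, 0.04) and Hspa2 (2.18 and 2.45 TPM, 0.29). None of these 5 passed the test. Hspbp1, which makes Hsp70 release its nucleotide, had 15.52 and 10.83 TPM, a log2 ratio of -0.31 (called lower).

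Of the 45 J-domain genes 37 were tested, with a median log2 ratio of -0.02, the same as for all genes. The test called 5 lower (15.9% of all genes) and 3 higher (10.7% of all genes), shares that do not exceed that background, and 1, Dnaja1, was past 1.5-fold. Those called lower were Dnaja1, Dnaja2, Dnajb1, Dnajb2 and Dnajb4. Those called higher were Dnajb9, Dnajc8 of the spliceosome (20.54 and 22.59 TPM, 0.28) and Dnajc27, a small GTPase with a J domain (4.04 and 4.35 TPM, 0.24). Dnajc1 of the endoplasmic reticulum (5.42 and 5.38 TPM, 0.15) did not pass. Others of the nucleus and ribosome did not pass: Dnajc21 (14.73 and 12.15 TPM), Dnajc2 (8.61 and 7.4), Dnajc9 (4.66 and 3.41) and Dnajc17 (3.06 and 3.44). Dnajc13 of endosomes had 13.1 and 13.35 TPM. Dnajc6, the neuronal auxilin, had 0.3 and 0.12 TPM, below detection by the 1 TPM rule. The BAG family had a median of -0.03 (0.07 with spike-in scaling). Of its 6 genes 2 were called lower (15.9% of all genes), Bag1 and Bag5 (10.58 and 8.04 TPM, -0.23). Bag2 had 16.06 and 14.68 TPM (-0.01) and Bag4 2.58 and 3.19 TPM (0.17).

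A further 17 members stand on no role list, among them Hspbp1 and Dnajc27. Of these 13 were tested, with a median of -0.02 and a range from -0.31 to 0.36. The test called 1 lower (15.9% of all genes) and 1 higher (10.7% of all genes). The highest in level were Dnaja4 (36.7 and 33.13 TPM, -0.06) and Dnajb5 (38.48 and 35.7 TPM, -0.02), J-domain genes that did not pass the test. Hspb11, at 0.36, rested on 62 and 73 counts and did not pass either.

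The 12 members below 1 TPM included most of the testis genes. Of 8 testis-predominant members only Hspa1l was detected. Dnajb8 and Dnajc5g had 0 counts in both libraries, as did Dnajb7; a count of 0 allows up to 3 counts, by counting error alone. Hspb9, Dnajb3, Dnajb13, Dnajc5b and Cct6b had at most 5 counts in either library. The other undetected members were Hspbap1 (0.95 and 0.72 TPM), Dnajc22, Dnajc6 and Cct8l1. Their ratios rest on too few counts to be read.

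Partners of these chaperones that the naming rule does not take were examined too. Of 30 such genes 24 were below 0, beside 54.5% of all genes, with a median of -0.10 (-0.01 with spike-in scaling, where 15 were below 0). The test called 11 lower (15.9% of all genes) and 2 higher (10.7% of all genes), and 2 were at least 1.5-fold lower (2.88% of all genes). Both of the latter are Hsp90 co-chaperones. Fkbp5, a glucocorticoid target that tunes steroid receptors, had 26.37 TPM in replicate 1 and 11.82 TPM in replicate 2 (-0.80), and Stip1, which hands clients from Hsp70 to Hsp90, had 64.47 and 39.07 TPM (-0.59). Among the most abundant, Fkbp4 had 168.69 and 131.9 TPM (-0.28), Serpinh1, the collagen chaperone, 118.23 and 78.57 TPM (-0.44), and Unc45b, the myosin chaperone, 81.07 and 59.77 TPM (-0.33), all called lower. Canx and Calr, the lectin chaperones of the endoplasmic reticulum, had 130.78 and 129.31 TPM and 123.1 and 122.77 TPM, and were called higher (0.07 and 0.14). Smyd1, which works with Unc45b on myosin, had 145.2 and 131.77 TPM (-0.0049), and the prefoldin subunit Pfdn5 had 136.95 and 124.81 TPM (0.02). Hsf1 itself had 13.64 and 12.81 TPM, a log2 ratio of 0.04, which did not pass the test; its RNA level does not measure its activity.

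The library ratios held between the ways of counting for most members. In the second transcript table, summed per gene, 71 of the 77 ratios had the same sign and 72 differed by under 0.1 on the log2 scale; the largest difference was 0.24, for Hspb11. Levels depended more on the way of counting for some members. In the second table Cryab had 1978 TPM in replicate 1 and 2032 TPM in replicate 2, Dnajc15 205 and 180, and Hspa8 980 and 688. Hspa9 stayed near its level in the gene table, at 261 and 223 TPM. Of the 89 members 65 share no 100-base stretch with another gene, and 6 share at least 20% of theirs. For those 6 the counts were also summed with the genes that share the stretches. The ratio of Hsp90aa1 was then -0.82, of Hspb1 with its pseudogene -0.70, and of Hspd1 -0.19. Hspa8 moved from -0.28 to -0.31, and the pseudogenes held 25.2% of its joint counts, so its level depends on how those reads were split. With Hspa1l added, the Hspa1 pair stood at -2.33.

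Isoforms were less certain than gene totals. Of 68 members whose mean reached 5 TPM, 61 have more than 1 annotated transcript. Among these 61 the leader took more than 50% of its gene in 50 and more than 90% in 20, and both tables named the same leader in 52. Hspb1-201 held nearly all of Hspb1 in both (99.97% and 99.95%), and Hsp90ab1-201 held 87.2% and 78.3%. Hspa8-201 held 64.4% of Hspa8 in replicate 1 and 47% in replicate 2 in the first table. The tables disagreed for Hspb6, where Hspb6-201 held 94% ± 8.04 in the first and 35.1% in the second, and for Cryab, where Cryab-205 held 52.2% ± 4.14 and 21.4%. In the first table the leader of 4 genes was not annotated as protein-coding: Cct7-202 and Cct8-209, marked for nonsense-mediated decay, Dnajc15-203, a processed transcript, and Dnajc19-205, a retained intron with 0 TPM in the second table. In the second table the leaders of Cryab and Dnaja2 (retained introns) and of Hspb6 (a processed transcript) were not protein-coding either.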

How the data were processed

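Per the labels, total RNA of heart was sequenced in 2 libraries of 1 group. The deposited gene table and first transcript table hold expected counts and TPM, and the second transcript table estimated counts and TPM, on mm10 with GENCODE M21; the authors' tools are not given in the sources used here. Deposited effective lengths were 99 bases under the transcript length. Expected counts were rounded and scaled by TMM (edgeR 4.0.16, R 4.3.3) with a prior count of 2. Genes whose mean reached 1 TPM were compared by a two-sided exact conditional binomial test with Benjamini-Hochberg adjustment over all 12189 genes at 0.05, and 95% Clopper-Pearson intervals were taken; both cover counting error only. With 2 libraries of 1 group no test over samples was possible. The methods were tested on simulated data. The binomial test and its interval were checked there on counts without extra spread, so that check does not cover spread between libraries.

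Members, lists and tests were chosen with earlier results of these data known. Named genes are the inducible and constitutive lists, up to 6 of highest level per other role, the 10 largest ratios each way, testis genes, neighbouring pairs, and partners of highest level or 1.5-fold different. Hspa12a, Hspa12b, Hspa13, Hspa14, Dnaja4, Dnajb5, Dnajb7, Dnajc3, Dnajc22, Dnajc30, Hspbap1, Cct8l1, Cct6a and Hsf1 lie outside that rule and were named after their values were seen. Python 3.11.15 was used for tests and figures and DESeq2 1.42.0 for size factors. Promoter sequences are RefSeq's.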

Additional observations from a re-analysis of the deposited data

How the results depend on the processing

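Library sizes by total counts or DESeq2 gave 3 members at least 2-fold lower, with Hsph1 added, in place of 2. With no TPM filter, 4 members were 1.5-fold or more higher and 1 of them 2-fold, all with at most 13 counts in a library. The number at least 1.5-fold lower was 6 under every planned setting. The difference of the inducible and constitutive medians, -0.67, was -0.48 without Hspa1a and Hspa1b and -0.72 against all other members. The chaperone share of nuclear protein-coding TPM was 1.77% over both libraries, 1.76% to 1.77% leaving out either, 1.75% in the second table and 1.61% from counts in place of TPM. The ratio of the inducible to the constitutive list was 30.8% to 43.9% leaving out either library, and 77 members reached 1 TPM in each. Of the 77 single ratios, 35 left their own 95% counting interval without crossing 2-fold with the spike-ins, 24 with total counts and 4 in the second table. Joint counts of genes that share stretches were added after the data were seen. No paired analysis was possible because both libraries belong to the same group. Depth limits members under about 1 TPM, and 2 libraries, perhaps of the same donor, do not measure the spread between animals.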
